A study of Mus musculus with 12 samples.

Results

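Solute carriers are membrane proteins that move sugars, amino acids, nucleosides, metals, ions, vitamins and other small molecules across the plasma membrane and the membranes of lysosomes, endosomes, the endoplasmic reticulum and the Golgi. In microglia, the resident phagocytes of the brain, they supply glucose, glutamine, arginine and zinc, export lactate, and carry metals and breakdown products out of phagosomes and lysosomes. The genes described here have names that begin with Slc and a family number. The mitochondrial carriers (Slc25a) and 6 further genes (Slc7a11, Slc3a2, Slc11a2, Slc40a1, Slc39a14 and Slc26a4) were left out, and a gene had to be listed in at least 3 of the 12 libraries. By this rule 200 genes were kept of 14275 genes in all, from 236 genes with a fitting name. A further 14 candidates were listed in 2 libraries and 22 in 1 library. Of the 200 genes, 4 carry the name without being transporters (Slc4a1ap, Slc7a6os, Slc9a3r1 and Slc9a3r2).

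BV-2, a line of mouse microglia made immortal in culture, was sampled in 4 groups of 3 libraries: lipopolysaccharide with nicotinamide mononucleotide (LPS+NMN), lipopolysaccharide alone (LPS), nicotinamide mononucleotide alone (NMN) and untreated cells (Control). LPS, from the outer wall of bacteria, activates microglia, and NMN is a precursor of NAD. The series asks how NMN acts on LPS-treated cells, and its design names LPS+NMN against LPS as the comparison of interest. Doses, times and separate cultures are not given in the sources used here, and the p-values reflect the spread among these libraries alone, which may be technical. The labels call the cell type macroglia. Of 12 microglia and macrophage markers 10 were listed in all 12 libraries, while the astrocyte genes Aqp4, Aldh1l1 and Gjb6, the oligodendrocyte gene Mog and the neuronal genes Rbfox3, Snap25 and Syt1 were in none. The astrocyte gene Slc1a2, the oligodendrocyte genes Mbp and Cnp and the neuronal gene Tubb3 were also in all 12.

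Each library is represented by a catalogue of transcript events: the first and last exons of assembled transcripts, alternative exon ends, retained introns, skipped exons and cassettes of several skipped exons. The measure is the number of distinct events per gene. It is not an expression level, and the catalogues hold no read counts, so depth is unknown. A listed solute carrier gene had at least 2 events, which are a first and a last exon. The libraries listed 11911 to 12246 genes and 50784 to 55787 events, of which 172 to 185 genes and 741 to 846 events were solute carriers (1.45% to 1.56% of all events).

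The catalogue of transporters had a similar size in every group. Solute carrier events numbered 795 ± 19.7 in LPS+NMN, 795 ± 28.1 in LPS, 809.7 ± 32.6 in NMN and 804.7 ± 55.9 in Control (SD, n = 3 each). Listed solute carrier genes numbered 181.3 ± 1.53, 181 ± 2, 179 ± 6.25 and 179.3 ± 5.13 in the same order of groups. First exons were the commonest type, with 316.3 ± 6.51 in LPS+NMN, 317 ± 8.19 in LPS, 316.3 ± 10.4 in NMN and 315.7 ± 22.5 in Control. Alternative exon ends averaged 115 ± 4.58 in LPS+NMN, 123.3 ± 14.4 in LPS, 129 ± 7.55 in NMN and 117.7 ± 23.8 in Control. They lay at 111 to 120 in LPS+NMN and 121 to 136 in NMN, so LPS+NMN lay below NMN by 1 event at the closest pair. The group ranges overlapped for first exons and skipped exons. Retained introns lay between 11 and 18 in LPS+NMN, 8 and 18 in LPS, 16 and 17 in NMN, and 12 and 15 in Control, so NMN lay above Control by 1 event at the closest pair. These sums were not tested.

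**Figure D1:**
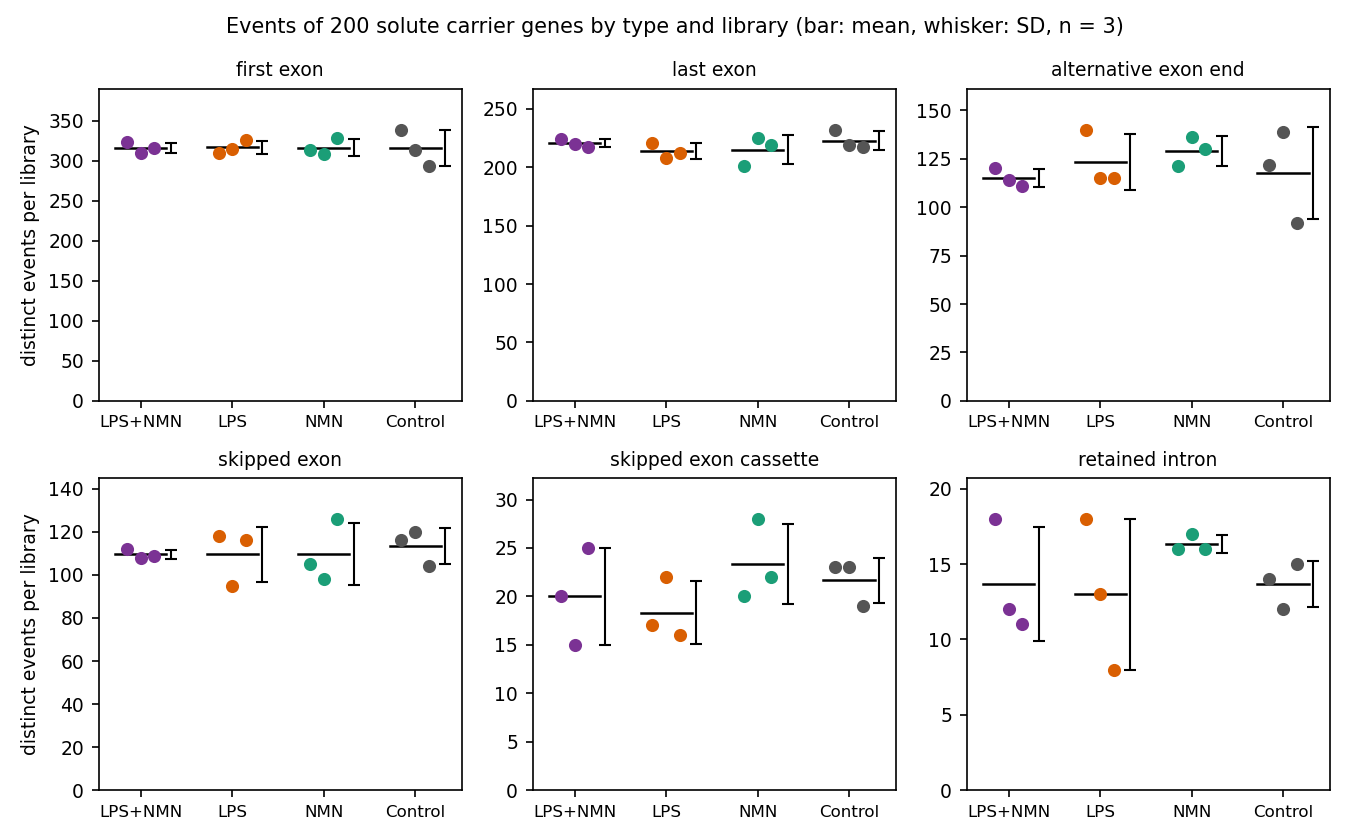
Distinct events of the 200 solute carrier genes (vertical axis, number per library) by event type, 1 point a library, with the group mean as a bar and the SD as a whisker (n = 3). Groups overlap in first exons and skipped exons, and the 3 Control libraries spread the most in first exons, at 294 to 339.

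The transporters listed by these cells were spread over the substrate classes in uneven shares. Classes were assigned by family number, so a gene that carries something else than most of its family is counted with that family: the serotonin transporter Slc6a4 and the purine nucleobase transporter Slc43a3 stand with the amino acids, and the multivitamin carrier Slc5a6 and the monocarboxylate importer Slc5a8 with the sugars. Of 318 protein-coding genes of GENCODE M21 with a fitting name, 195 were among the 200. Among metal transporters 25 of 29 annotated genes were kept, and among the carriers that bring nucleotide sugars into the Golgi and their relatives 22 of 27. The vitamin, heme and choline class had 14 of 18, and the lipid and the nucleoside class 5 of 7 each. The exchangers and cotransporters of protons, bicarbonate, chloride and other inorganic ions had 36 of 55 and the amino acid transporters 36 of 62. Carriers of organic ions and neurotransmitters had 16 of 49. Of the glutamate transporters typical of astrocytes, Slc1a2 was in all 12 libraries with 2 or 3 events and Slc1a3 was in none. The median gene had a mean of 3.17 events, against 3.42 over all 12775 genes listed in 3 or more libraries, 3.42 for 41 ABC transporters and 4.42 for 40 mitochondrial carriers. Listing was less steady: 77.5% of the 200 genes were in all 12 libraries, against 85.0% of all genes, 85.4% of ABC transporters and 95% of mitochondrial carriers. Of the 200 genes, 131 had a splicing event in some library and 69 had none. The number of annotated exons had little relation to the number of events (Spearman's rho 0.042 over 200 genes; genes are no independent replicates).

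The genes richest in events were found across the classes. Slc38a6, an amino acid transporter of the Slc38 family, had 29, 10 and 16 events in LPS+NMN, 26, 15 and 12 in LPS, 15, 15 and 13 in NMN and 6, 23 and 11 in Control. Its groups overlapped, and Control alone ran from its lowest value of 6 to 23. Slc38a10 of the same family was steadier, with 20, 13 and 18 events in LPS+NMN, 17, 17 and 19 in LPS, 14, 16 and 14 in NMN and 18, 16 and 16 in Control. Slc35c2, a Golgi protein of the nucleotide sugar class, had 16, 13 and 14 events in LPS+NMN, 14, 18 and 14 in LPS, 17, 17 and 19 in NMN and 16, 19 and 14 in Control, with LPS+NMN below NMN. Slc2a6, a glucose transporter of lysosomes known as GLUT6, had 9 to 16 events. Slc39a13, a zinc transporter of the Golgi and vesicles, had 13, 14 and 8 in LPS+NMN, 16, 8 and 9 in LPS, 16, 17 and 15 in NMN and 12, 11 and 14 in Control, with NMN above both LPS+NMN and Control. Slc9a5, a sodium-proton exchanger, had 5 to 19 over overlapping groups. Slc15a3, a lysosomal peptide and histidine carrier, had 6, 17 and 9 events in LPS+NMN, 18, 8 and 10 in LPS, 13, 8 and 14 in NMN and 11, 7 and 3 in Control, and its groups overlapped. At the other end, 48 genes never had more than 2 events. Across all libraries 10 genes had the same number, and 6 of them are among these 48. The 10 include Slc16a1, the lactate and pyruvate carrier MCT1, at 2 events, and Slc38a2, a glutamine and alanine importer, at 3.

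Many of the best known transporters had few events, at similar numbers in all groups. Slc2a1, the glucose transporter GLUT1, had 3, 3 and 3 events in LPS+NMN, 4, 4 and 4 in LPS, 4, 3 and 4 in NMN and 3, 4 and 3 in Control. LPS+NMN lay below LPS by 1 event and the other groups overlapped. In LPS+NMN replicate 3, 2 of the 3 events lay on the strand opposite to the gene. Slc1a5, a glutamine importer, and Slc7a5, an importer of large neutral amino acids, had 2 or 3 events in every library. Slc7a2, the arginine importer CAT2, had 4, 4 and 3 events in LPS+NMN, 3, 2 and 3 in LPS, 4, 2 and 2 in NMN and 3, 3 and 2 in Control. The lactate exporter Slc16a3 (MCT4) had 3 to 8 events, and its groups overlapped. The copper importer Slc31a1 and the heme carrier Slc48a1 had 2 to 4. Slc29a1, the nucleoside transporter ENT1, had 7 to 13 events and Slc29a3, its lysosomal relative ENT3, had 2 to 6. The taurine importer Slc6a6 had 3 to 9 events, the phosphate importer Slc20a1 3 to 6, the zinc importer Slc39a10 4 to 7 and the folate carrier Slc46a1 2 to 4. Slc11a1, the phagosomal divalent metal transporter Nramp1, had 9, 7 and 7 events in LPS+NMN, 7, 7 and 9 in LPS, 7, 7 and 7 in NMN and 7, 10 and 7 in Control. In these genes, too, the ranges of the groups met. Slc12a8, reported in the mouse small intestine as a carrier of NMN itself, was close to the limit of the rule: it had 2 events in LPS replicate 2, NMN replicate 2 and Control replicate 2 and was not listed in the other 9 libraries.

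Other genes with many events for their class also had groups that overlapped. Among carriers of nucleosides and nucleotide sugars, Slc29a2 had 2 to 7 events, Slc35e3 6 to 15, Slc35b3 7 to 16 and the ATP and ADP exchanger of the endoplasmic reticulum Slc35b1 4 to 6. Of the sugar class, Slc37a3 had 8 to 16, Slc37a2 3 or 4, and the urate transporter Slc2a9 5 to 14. The sialic acid exporter of lysosomes Slc17a5 had 5 to 12 events and Slc10a7 2 to 10. Among ion carriers Slc9a4 had 7 to 13 and Slc4a7 4 to 12. All Slc4a7 events lay opposite to its strand in GENCODE M21, except in LPS replicate 1, where 2 of 4 did. Among metal carriers Slc39a7, a zinc transporter of the endoplasmic reticulum, had 2 to 11, Slc30a7 2 to 5 and Slc31a2 3 to 5. The purine nucleobase transporter Slc43a3 had 8 to 13 events, the lysosomal amino acid transporter Slc38a9 5 to 16, the monocarboxylate family member Slc16a6 4 to 8, the vitamin C importer Slc23a2 4 to 8, and the choline transporter family members Slc44a2 and Slc44a1 3 to 8 and 3 or 4. The acetyl-CoA transporter Slc33a1 had 3 to 5 and the fatty acid importer Slc27a4 3 or 4.

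The rule's limit of 3 libraries lay among genes listed sporadically. The 11 genes listed in exactly 3 libraries, among them Slc12a8, the sodium-coupled monocarboxylate importer Slc5a8, and the zinc importer Slc39a8, each had 2 events whenever they were listed. The genes just outside, listed in 2 libraries, included Slc13a5, Slc15a2 and Slc16a12, also at 2 events a listing.

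In most classes the sums overlapped between groups, and they were not tested. The class of vitamins, heme and choline was among those that did not. Its 15 genes had 41 to 43 events in LPS+NMN, 39 to 52 in LPS, 40 to 51 in NMN and 52 to 63 in Control. LPS+NMN and NMN lay below Control, and LPS met it at 52. None of the 15 passed the test described next. In LPS+NMN 10 of the 15 had a lower mean than in Control and 1 a higher mean, against 43.6% and 40.9% of all 11671 genes tested. The folate carrier Slc19a1 held much of this sum, with 6, 13 and 6 events in LPS+NMN, 13, 7 and 6 in LPS, 11, 5 and 13 in NMN and 15, 12 and 12 in Control. The amino acid class had 168 to 202 events in LPS+NMN, 171 to 183 in LPS, 171 to 187 in NMN and 164 to 182 in Control. The metal class had 91 to 109, 93 to 105, 105 to 108 and 92 to 102 in the same order of groups, so NMN lay above Control. The sugar class had 76 to 80 events in LPS+NMN, 81 to 88 in LPS, 76 to 90 in NMN and 76 to 91 in Control, with LPS+NMN below LPS by 1 event at the closest pair. The 5 genes of the lipid class had 8 to 10 in LPS+NMN, 9 to 13 in LPS, 8 to 10 in NMN and 11 to 13 in Control, with LPS+NMN and NMN below Control.

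Gene by gene, the comparisons gave no solute carrier gene past the threshold. The test was limma on log2(events + 1), fitted on all 11671 genes with an event in at least 3 libraries whose numbers varied, with Benjamini-Hochberg adjustment over all of them and a threshold of 0.05. Of the 200 genes, 190 were tested, and the 10 with a constant number could not be. In LPS+NMN against LPS, 0 of 190 had more events and 0 had fewer at the adjusted threshold, where the share of all genes was 0% in each direction. In LPS against Control it was 0 and 0, against 0.257% and 0.0428% of all genes. In NMN against Control it was 0 and 0, against 0.223% and 0.00857%. In LPS+NMN against Control it was 0 and 0, against 0.283% and 0.0514%. In LPS+NMN against NMN it was 0 and 0, against 0% and 0%. The interaction, which asks whether the difference made by NMN depends on LPS, gave 0 positive and 0 negative genes, against 0% and 0.0428%. These comparisons share libraries and are not independent of each other. The smallest adjusted limma p among the solute carriers was 0.822 for LPS+NMN against LPS (Slc12a2), 0.18 for LPS against Control (Slc35f3) and 0.221 for LPS+NMN against Control (Slc27a1).

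Without adjustment the shares lay below those of all genes in some comparisons and above them in others. At an unadjusted limma p under 0.05, LPS+NMN had more events than LPS for 4 genes (2.11%) and fewer for 3 (1.58%), against 2.5% and 1.96% of all genes. LPS had more events than Control for 3 genes (1.58%) and fewer for 6 (3.16%), against 3.57% and 3.9%. NMN had more events than Control for 6 (3.16%) and fewer for 6 (3.16%), against 3.48% and 3.52%. LPS+NMN had more than Control for 4 (2.11%) and fewer for 6 (3.16%), against 3.91% and 3.55%. LPS+NMN had more than NMN for 6 (3.16%) and fewer for 5 (2.63%), against 2.13% and 2.42%. In each transporter class the number of genes past the adjusted threshold was 0 in all 5 comparisons. Genes whose groups did not overlap numbered 2 with more and 5 with fewer events in LPS+NMN against LPS, beside 1.8% and 1.42% of all genes. For LPS against Control they numbered 3 and 2 (all genes 2.52% and 2.69%), for NMN against Control 5 and 3 (2.16% and 2.35%), for LPS+NMN against Control 6 and 5 (2.57% and 2.48%) and for LPS+NMN against NMN 3 and 3 (1.53% and 1.62%). Genes listed in all 3 libraries of a group and in none of the other were rarer still. In LPS+NMN against LPS there were 0 in each direction (all genes 0.129% for LPS+NMN and 0.0771% for LPS). In LPS against Control there were 0 for LPS and 1 for Control (0.557% and 0.326%), and in NMN against Control 0 for NMN and 1 for Control (0.42% and 0.317%). In LPS+NMN against Control there were 2 for LPS+NMN and 1 for Control (0.617% and 0.257%), and in LPS+NMN against NMN 1 for LPS+NMN and 0 for NMN (0.231% and 0.163%).

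**Figure D2:**
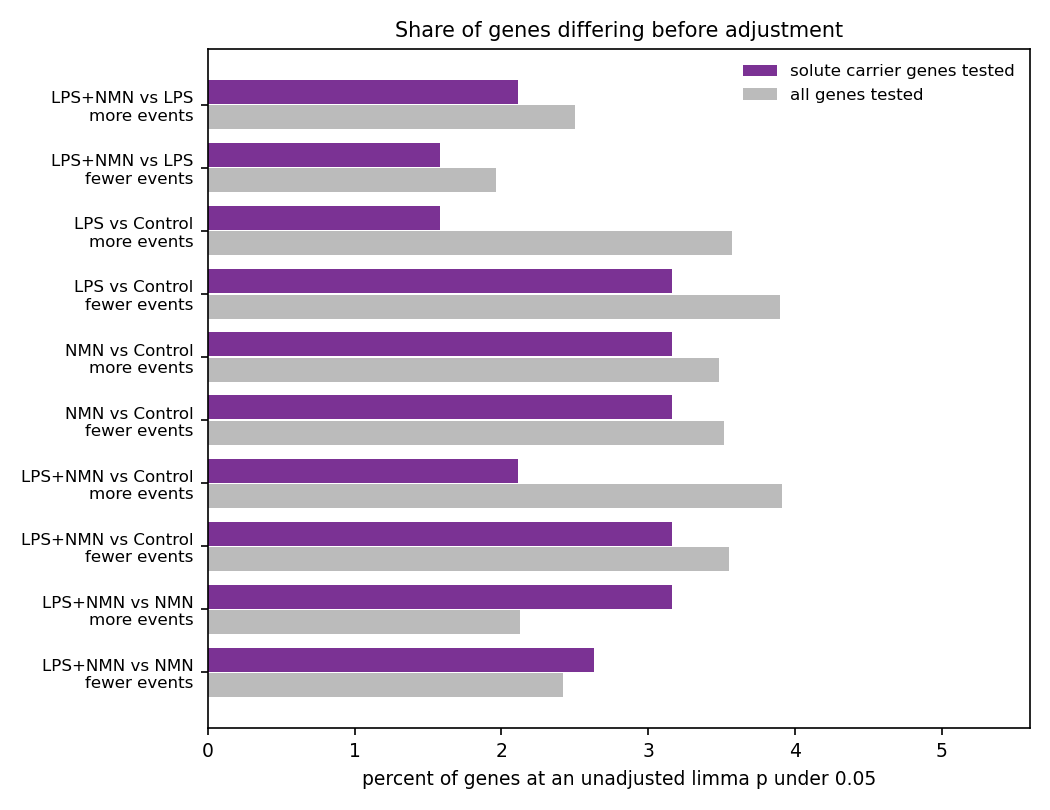
Share of genes (horizontal axis, percent) at an unadjusted limma p under 0.05 in each comparison and direction, for the 190 solute carrier genes tested and for all 11671 genes. The solute carrier shares run from 1.58% to 3.16%, and the shares of all genes from 1.96% to 3.91%.

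The genes with the widest differences whose groups did not overlap are given with their values. In LPS+NMN against LPS these were Slc6a12, Slc15a4, Slc6a9 and Slc12a2. Slc6a12, the betaine and GABA transporter BGT1, had 12, 9 and 9 events in LPS+NMN, 5, 8 and 6 in LPS, 6, 10 and 7 in NMN and 8, 8 and 8 in Control. LPS+NMN lay above LPS and Control, with a log2 difference of 0.59 ± 0.21 (SE) from LPS and an adjusted p = 0.838 by limma. Slc15a4, a lysosomal histidine and peptide carrier that takes part in Toll-like receptor signalling, had 6, 6 and 6 events in LPS+NMN, 11, 10 and 7 in LPS, 5, 7 and 9 in NMN and 11, 11 and 7 in Control. LPS+NMN lay below LPS and Control (log2 difference from LPS -0.54 ± 0.23, adjusted p = 0.93 by limma). With first and last exons alone the difference had the opposite sign, at 0.02 from LPS and 0.13 from Control. The gene overlaps Glt1d1 on the other strand, and whether counting used strand is not given.

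Slc6a9, the glycine transporter GlyT1, had 4, 4 and 2 events in LPS+NMN, 5, 5 and 5 in LPS, 4, 5 and 3 in NMN and 2, 3 and 3 in Control. LPS lay above both LPS+NMN (log2 difference -0.51 ± 0.23 for LPS+NMN minus LPS) and Control (0.72 ± 0.23 for LPS minus Control), with adjusted p = 0.93 and adjusted p = 0.343 by limma. The gene has B4galt2 and Ccdc24 on the other strand. Its LPS events included 2 alternative exon ends in all 3 LPS libraries, 1 LPS+NMN library, 2 NMN libraries and no Control library. Slc12a2, the sodium-potassium-chloride cotransporter NKCC1, had 2, 2 and 2 events in LPS+NMN, 3, 3 and 3 in LPS, 2, 2 and 2 in NMN and 3, 2 and 2 in Control, a difference of 1 event between LPS+NMN and LPS.

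LPS set against Control separated Slc35f3, a gene of the nucleotide sugar family, which had 0, 0 and 0 events in LPS and 2, 2 and 2 in Control. It also had 0, 0 and 2 in LPS+NMN and 2, 2 and 2 in NMN. The log2 difference between LPS and Control was -1.58 ± 0.40 (adjusted p = 0.18 by limma), and the stretch of the gene listed in Control ran to 6403 nt of the annotated 96925. In the 1 LPS+NMN library that listed it, the stretch was 256761 nt, longer than the annotated gene. Slc45a3, a sugar transporter family member, had 4, 6 and 5 events in LPS and 2, 3 and 3 in Control. It had 6, 3 and 2 in LPS+NMN and 2, 2 and 2 in NMN. Slc4a11, an ion transporter of the bicarbonate family, had 2, 2 and 2 events in LPS, against 3, 3 and 5 in Control. It had 3, 3 and 3 in LPS+NMN and 2, 2 and 4 in NMN, so LPS+NMN also lay above LPS. Slc24a1, a sodium-calcium-potassium exchanger, was in no LPS library and in all 3 NMN libraries, with 2 events each. It also had 2 events in 1 LPS+NMN and 1 Control library, over at most 5156 nt of the annotated 28747.

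NMN against Control separated Slc16a13, of the monocarboxylate carriers, at 6, 6 and 7 events in NMN and 3, 3 and 2 in Control (log2 difference 1.01 ± 0.34, adjusted p = 0.488 by limma). Its LPS+NMN and LPS libraries spread from 2 to 7. Slc9a8, a sodium-proton exchanger of the Golgi and endosomes, had 11, 11 and 10 events in NMN and 8, 8 and 8 in Control. LPS+NMN had 10, 11 and 9, also above Control, and LPS had 8, 8 and 10. Slc28a2, a concentrative nucleoside transporter, had 3, 5 and 3 in NMN and 2, 2 and 2 in Control. It had 2, 2 and 3 in LPS+NMN and 3, 3 and 2 in LPS. Reads could be shared with its near-identical neighbour Slc28a2b. Slc35e4 had 3, 4 and 3 in NMN and 2, 2 and 2 in Control, with 2, 3 and 2 in LPS+NMN and 2, 2 and 3 in LPS. In the other direction, Slc7a1, the arginine importer CAT1, had 3, 5 and 4 events in NMN and 7, 6 and 7 in Control. The log2 difference NMN minus Control was -0.63 ± 0.23 (adjusted p = 0.534 by limma). LPS+NMN was also low, at 6, 4 and 3, and met Control at 6, while LPS had 7, 6 and 5. Slc26a6, a chloride and bicarbonate exchanger, had 3, 3 and 3 events in NMN and 6, 5 and 5 in Control. It had 7, 6 and 4 in LPS+NMN and 11, 4 and 6 in LPS. Slc5a3, the myo-inositol cotransporter, had 0, 0 and 0 events in NMN and 2, 2 and 2 in Control. It had 2, 2 and 0 in LPS+NMN and 2, 0 and 2 in LPS. The gene shares its locus and strand with Mrps6, so its listing may depend on how a transcript was assigned.

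LPS+NMN against Control set apart Slc30a2, a zinc transporter that loads zinc into vesicles, with 2, 2 and 2 events in LPS+NMN and 0 in all 3 Control and all 3 NMN libraries. LPS had 0, 0 and 2. The listed stretch was 823 to 1194 nt of an 11304 nt gene, so a full transcript was in no library. Slc26a1, a sulfate transporter opposite Idua, had 2, 2 and 2 events in LPS+NMN and 0, 0 and 0 in Control, with 1 library each in LPS and NMN. Slc18a1, the monoamine transporter VMAT1, had 4, 3 and 6 events in LPS+NMN and 2, 2 and 2 in Control. It had 4, 2 and 2 in LPS and 3, 2 and 2 in NMN. Slc44a4, a choline transporter family member, had 0, 0 and 0 in LPS+NMN and 2, 2 and 2 in Control. It had 0, 0 and 2 in LPS and 0, 2 and 2 in NMN. Slc27a1, a fatty acid importer, had 2, 2 and 2 events in LPS+NMN and 3, 5 and 4 in Control. The log2 difference was -0.72 ± 0.18 (adjusted p = 0.221 by limma). LPS and NMN were nearly as low, at 2, 2 and 3 and at 3, 2 and 2. In LPS+NMN replicates 2 and 3 and LPS replicates 1 and 2, 1 of its 2 events lay on the opposite strand. Slc17a9, which loads ATP into vesicles, had 5, 5 and 5 events in LPS+NMN, 7, 6 and 7 in LPS, 8, 7 and 7 in NMN and 9, 7 and 6 in Control, so LPS+NMN lay below each other group. Against NMN, Slc7a8, an exchanger of neutral amino acids, had 4, 4 and 3 events in LPS+NMN and 2, 2 and 2 in NMN. It had 4, 5 and 4 in LPS and 3, 2 and 5 in Control. In 11 of 12 libraries 1 or 2 of its events lay on the strand opposite to the gene. These were 1, 0 and 2 events in LPS+NMN and 2, 2 and 2 in NMN, so no NMN event lay on the strand of the gene.

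**Figure D3:**
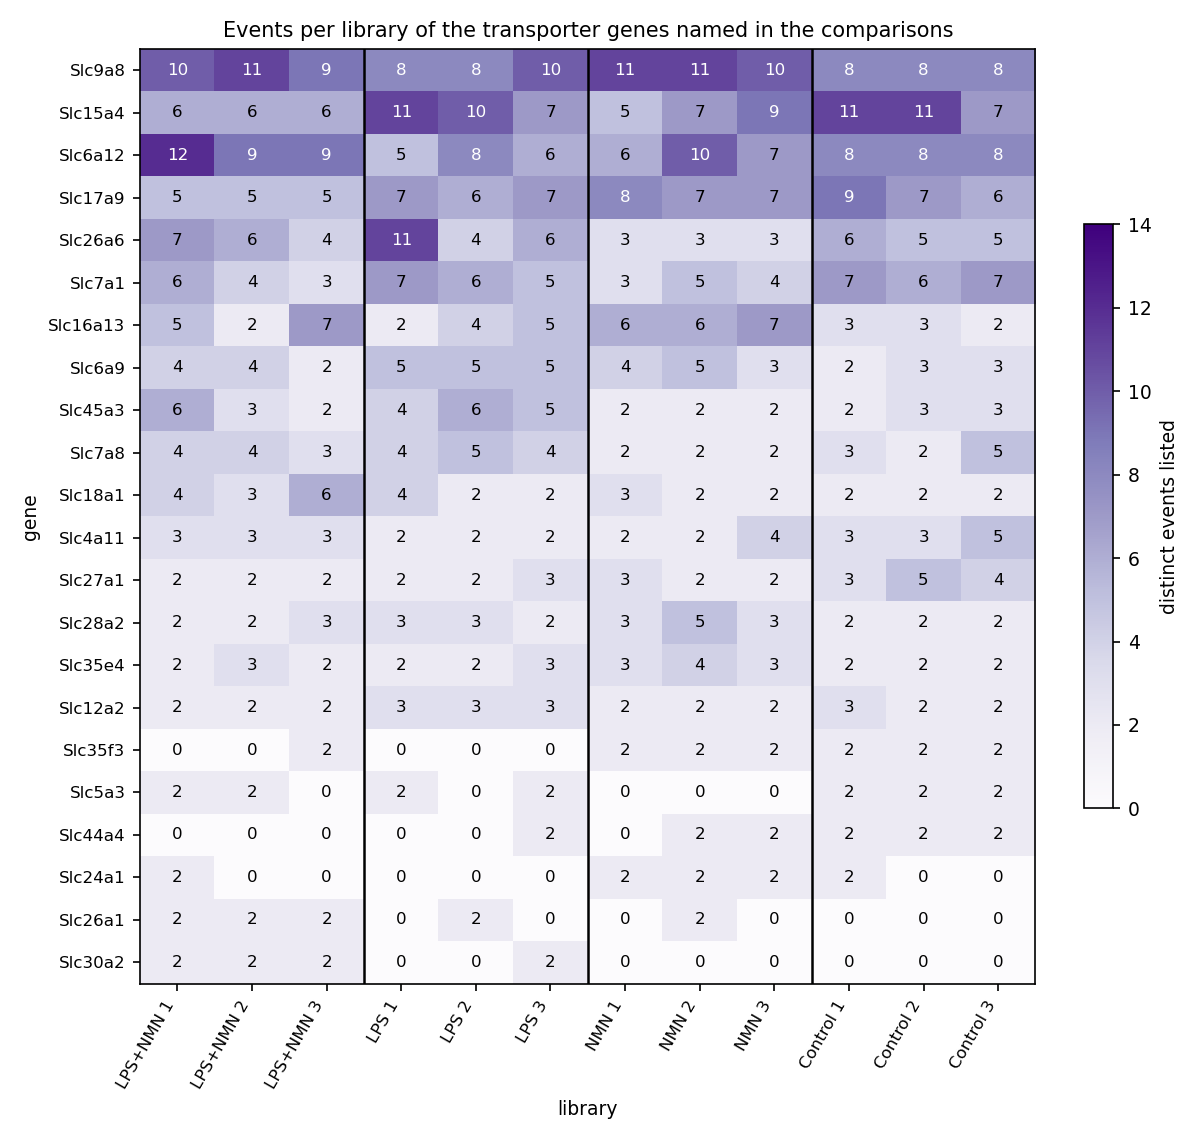
Number of distinct events (colour and digit) per library for the solute carrier genes with the widest differences between groups that did not overlap, and for genes listed in all 3 libraries of a group and none of another. Slc30a2 has 2 events in all LPS+NMN libraries and 0 in all Control libraries, and none of these genes passed the adjusted test.

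Beyond event numbers, the stretch of genome between the outermost listed events of a gene was measured, taking events on either strand. Such a stretch need not be 1 assembled transcript of the gene. This measure was chosen after the data were seen and has no test. The 155 genes in all 12 libraries spanned a median of 99.96% of their annotated length, and the other 45 spanned 12.71% when listed. Lengths were taken from GENCODE M21 on GRCm38, while the assembly of the catalogues is not named. Genes whose groups lay apart by at least 1.5 times were counted, taking unlisted genes as 0. LPS was narrower than Control for 6 of 200 genes (3.0%), against 0.838% of all 12775 genes, and wider for 3 (1.5%), against 1.28%. Of the 6 narrower genes, Slc14a2 had 2 events in each Control library, all on the strand opposite to the gene. LPS+NMN was narrower than Control for 5 (2.5%), against 0.751%, and wider for 4 (2.0%), against 1.25%. NMN was narrower than Control for 2 (1.0%), against 0.595%, and wider for 3 (1.5%), against 0.994%. LPS+NMN against LPS gave 1 wider and 0 narrower, against 0.431% and 0.305%. LPS+NMN against NMN gave 1 wider and 1 narrower, against 0.391% and 0.368%. The 3 comparisons with Control share its libraries.

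The 6 genes that lay apart from Control in more than 1 treatment had these stretches. Slc9a9, an endosomal sodium-proton exchanger, spanned 42988 nt in 1 LPS+NMN library and was unlisted in the other 2. It spanned 43281 and 16180 nt in 2 LPS libraries, 27790, 142808 and 261851 nt in NMN and 475697, 557448 and 386445 nt in Control, of 560537 nt annotated. The stretch in every Control library thus took in most of the annotated length, and no treated library reached the lowest Control. Slc13a3, a carrier of succinate and other dicarboxylates, spanned 25803, 3938 and 23137 nt in LPS+NMN, 9131, 3969 and 5426 in LPS, 39788, 18309 and 37571 in NMN and 43294, 43318 and 39321 in Control. LPS and LPS+NMN lay below Control, and NMN overlapped it. In LPS+NMN replicate 3, NMN replicates 1 and 3 and Control replicate 3, 1 of its 2 events lay on the opposite strand. A first exon of the gene was in all NMN and Control libraries and in no LPS or LPS+NMN library.

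Slc2a3, the glucose transporter GLUT3, spanned 549, 4431 and 1205 nt in LPS+NMN, 11076 in 1 LPS library, 2529 and 5341 in 2 NMN libraries, and 14937, 14937 and 9274 nt in Control. Its last exon in Control, 2281 to 2332 nt long, was listed in 3 of 3 Control libraries and 0 of 9 others; in the 6 of these that list the gene, the last exons were 64 to 204 nt. Such events, in all 3 libraries of a group and none of the other 9, were rare: 2 of 2290 solute carrier events for Control, against 0.0735% of all events, 2 for LPS, against 0.041%, 1 for LPS+NMN, against 0.0283%, and 0 for NMN, against 0.0332%. The other Control event was a 2525 nt last exon of the copper transporter Slc31a2. The LPS events were a first exon of the GDP-fucose carrier Slc35c1 and a last exon of Slc7a15, and the LPS+NMN event a first exon of Slc5a4b. The Slc7a15 exon lay on the strand opposite to the gene, as did all Slc7a15 events in LPS and nearly all in the other groups. Slc35c1 and Slc5a4b had 2 events in every library, and the listed exon differed all the same.

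In the other direction, Slc10a6, an importer of sulfated steroids, spanned 23478, 23693 and 23693 nt in LPS+NMN, 20171, 16931 and 23521 in LPS and 22736, 23446 and 23515 in NMN. In Control it spanned 10891 and 10838 nt and was unlisted in the other library. The 9 treated libraries spanned most of the 23693 nt annotated and no Control library did. Slc6a4, the serotonin transporter, had 2 events in all 9 treated libraries and in 1 Control library. It spanned 33488, 3262 and 18766 nt in LPS+NMN, 33601, 19139 and 15135 in LPS, 14752, 6963 and 6727 in NMN and 3565 in Control. Slc16a9, a monocarboxylate carrier family member, spanned 3044, 21655 and 37681 nt in LPS+NMN, 17342, 2595 and 2140 in LPS, 5699 and 15478 in 2 NMN libraries and 937 in 1 Control library. Depth is unknown, and whether read depth or expression set these stretches was not tested.

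**Figure D4:**
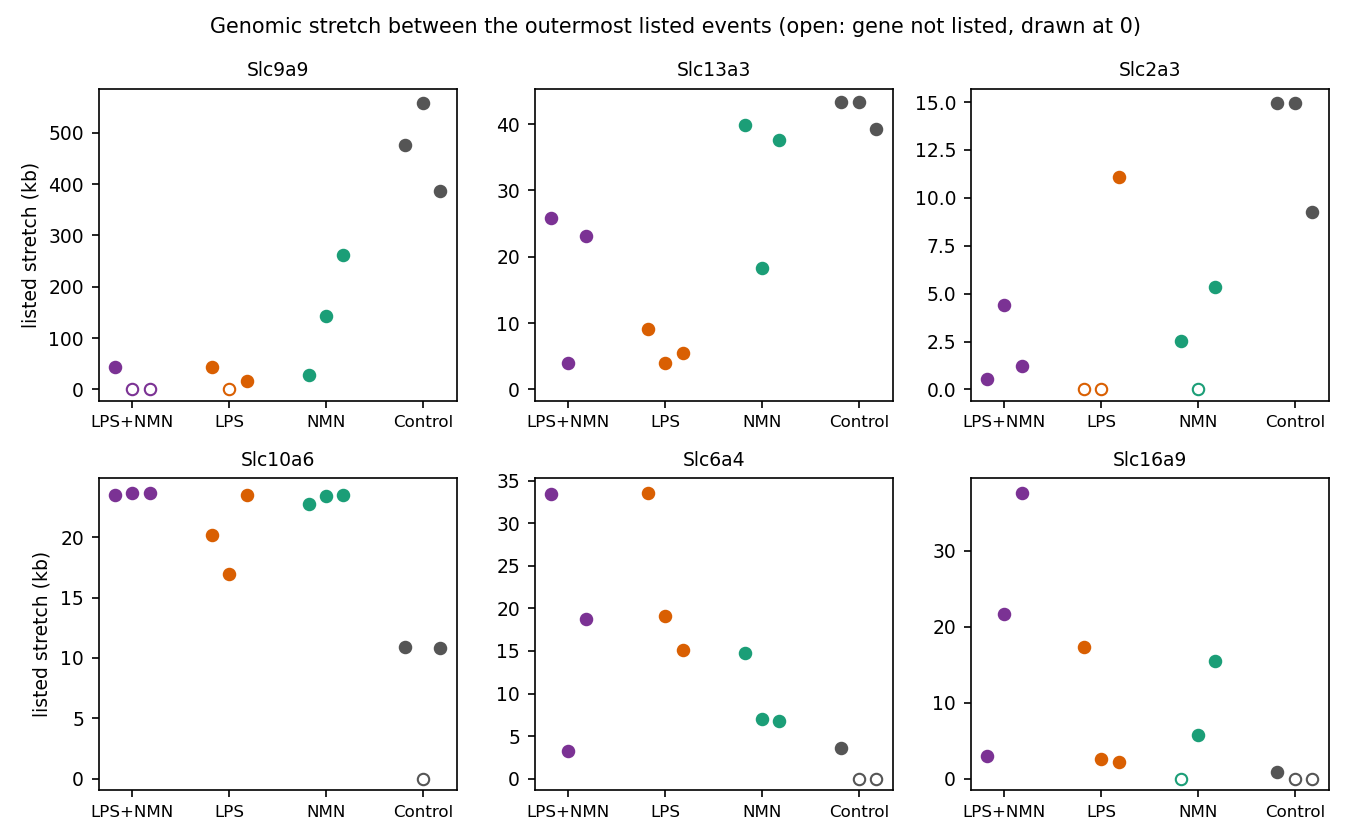
Stretch of genome between the outermost listed events (vertical axis, kb) of 6 solute carrier genes in each library, with open points at 0 for libraries that do not list the gene. Slc9a9, Slc13a3 and Slc2a3 are widest in Control, and Slc10a6, Slc6a4 and Slc16a9 are wider in at least 2 of the 3 treatments.

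Skipped exons place the variation within the transporter transcripts. The catalogues listed 282 skipped exons in 110 of the 200 genes, of which 188 (66.7%) were matched to GENCODE M21 by the lengths of the exon and its neighbouring introns. In all 12 libraries 28 were listed and in 1 library 122. Of these 28, 26 were matched, 16 were coding and 22 had an exon-less transcript in the annotation. Of the 28, 42.9% had a length that is a multiple of 3, against 51.2% of 2371 such exons over all genes, coding or not. Among the 16 coding exons, 7 had such a length, so that leaving them out keeps the reading frame.

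The following exons were listed as skipped in all 12 libraries. Capitals mark the exon, and lower case marks 12 nt of the neighbouring exons of the transcript on each side. The sequences are from GENCODE M21 transcripts (GRCm38), 5′ to 3′ in the sense of the gene. Exon 3 of 15 of Slc11a1 is 123 nt at chr1:74376793-74376915 (+). Exon 3 of 18 of the zinc transporter family member Slc30a9 is 60 nt at chr5:67324674-67324733 (+), and exon 15 of 17 of Slc38a10 is 24 nt at chr11:120108467-120108490 (-). The lengths of these 3 are multiples of 3. A second skipping event at the position of the Slc38a10 exon was listed in 3 LPS+NMN, 3 LPS, 0 NMN and 2 Control libraries. Exon 4 of 16 of Slc38a2 is 116 nt at chr15:96697922-96698037 (-), not a multiple of 3, and GENCODE M21 has no transcript that skips it.
Slc11a1: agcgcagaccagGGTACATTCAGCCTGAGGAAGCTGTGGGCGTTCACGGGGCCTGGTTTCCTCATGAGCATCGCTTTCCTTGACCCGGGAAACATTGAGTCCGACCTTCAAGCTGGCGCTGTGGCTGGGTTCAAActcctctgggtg
Slc30a9: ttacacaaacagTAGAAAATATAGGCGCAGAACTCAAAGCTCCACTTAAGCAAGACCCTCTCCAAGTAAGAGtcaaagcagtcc
Slc38a10: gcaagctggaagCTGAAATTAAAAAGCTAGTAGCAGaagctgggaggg
Slc38a2: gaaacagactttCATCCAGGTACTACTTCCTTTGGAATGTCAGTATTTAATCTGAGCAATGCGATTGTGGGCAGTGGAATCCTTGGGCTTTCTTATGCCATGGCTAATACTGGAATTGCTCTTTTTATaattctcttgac

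These 3 exons are examples whose listing differed between groups. Skipped exons of Slc2a1, Slc4a11 and Slc7a1, not shown, were also in all libraries of a group and none of another. The Slc2a1 exon was skipped in 0 LPS+NMN, 3 LPS, 2 NMN and 2 Control libraries. Exon 10 of 15 of Slc6a12, 113 nt at chr6:121360434-121360546 (+), was skipped in 3 of 3 LPS+NMN, 0 of 3 LPS, 2 of 3 NMN and 2 of 3 Control libraries. Exon 8 of 13 of Slc17a9, 88 nt at chr2:180737592-180737679 (+), was skipped in 0 LPS+NMN, 2 LPS, 3 NMN and 2 Control libraries. Exon 9 of 12 of Slc13a2, a dicarboxylate carrier, 122 nt at chr11:78400084-78400205 (-), was skipped in 1 LPS+NMN, 0 LPS, 0 NMN and 3 Control libraries. None of the 3 exons shown has a length that is a multiple of 3.
Slc6a12: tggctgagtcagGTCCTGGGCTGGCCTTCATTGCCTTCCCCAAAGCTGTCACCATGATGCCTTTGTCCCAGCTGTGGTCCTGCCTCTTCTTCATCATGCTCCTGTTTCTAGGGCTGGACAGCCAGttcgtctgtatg
Slc17a9: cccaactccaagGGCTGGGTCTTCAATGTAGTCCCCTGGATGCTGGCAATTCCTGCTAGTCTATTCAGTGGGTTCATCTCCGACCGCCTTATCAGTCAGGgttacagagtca
Slc13a2: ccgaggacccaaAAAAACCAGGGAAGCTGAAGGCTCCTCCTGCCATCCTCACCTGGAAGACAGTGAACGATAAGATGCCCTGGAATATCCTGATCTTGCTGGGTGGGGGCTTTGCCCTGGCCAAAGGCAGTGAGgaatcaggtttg

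Over all event types, such splits made up shares of the same order as among all genes. Of 1639 solute carrier events listed in LPS+NMN or LPS, 4 (0.244%) were in all 3 LPS+NMN libraries and no LPS library, against 0.408% of all events, and 10 (0.61%) were in all 3 LPS and no LPS+NMN library, against 0.362%. For LPS and Control, 8 of 1673 (0.478%) were in all LPS and no Control library, against 0.597%, and 8 (0.478%) in all Control and no LPS library, against 0.613%. For NMN and Control, 6 of 1702 (0.353%) were in all NMN and no Control library, against 0.545%, and 12 (0.705%) in all Control and no NMN library, against 0.473%. For LPS+NMN and Control, 7 of 1674 (0.418%) were in all LPS+NMN and no Control library, against 0.632%, and 7 in all Control and no LPS+NMN library, against 0.585%. For LPS+NMN and NMN, 8 of 1681 (0.476%) were in all LPS+NMN and no NMN library, against 0.321%, and 10 (0.595%) in all NMN and no LPS+NMN library, against 0.368%. Single events were not tested.

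**Figure D5:**
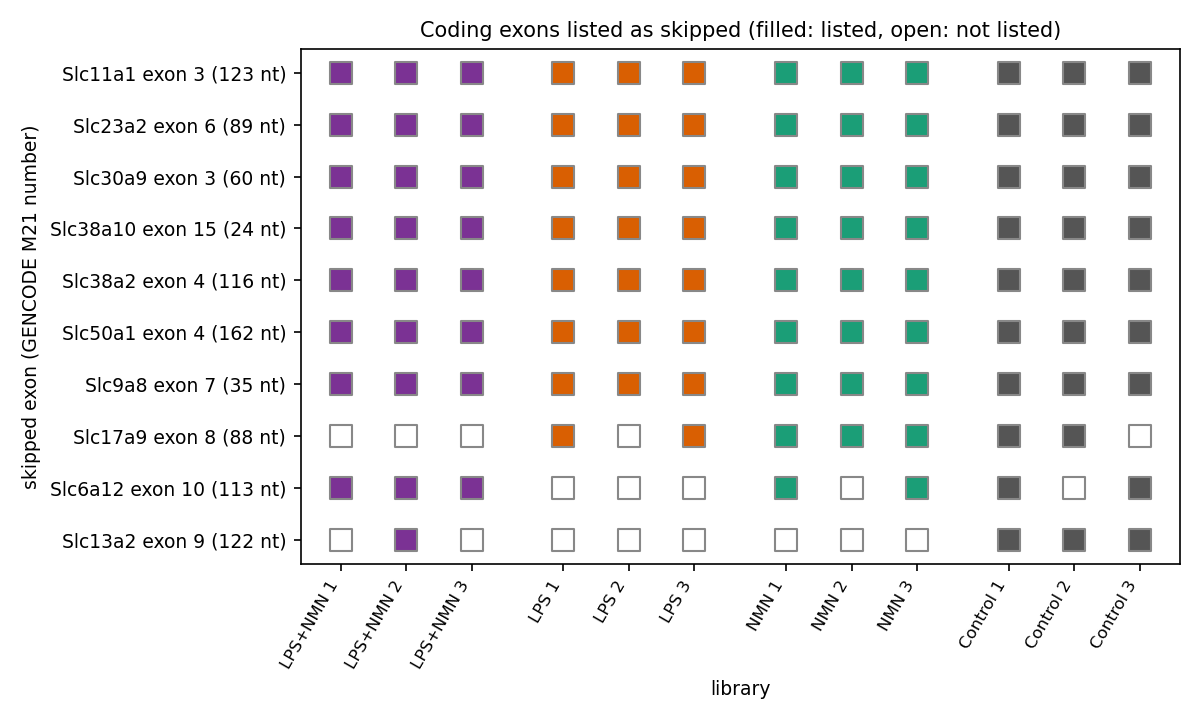
Coding exons listed as skipped (rows) in each library (columns), filled where listed and open where not. The top 7 exons are filled in all 12 libraries, and the Slc6a12 exon is filled in the 3 LPS+NMN libraries and open in the 3 LPS libraries.

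Some alternative exon ends and retained introns were listed in all 12 libraries. In all 12 libraries, 23 pairs of alternative exon ends in 16 genes were listed, 7 at a donor and 16 at an acceptor site, and 8 differed by a multiple of 3. Slc43a3, a purine nucleobase transporter, had 3 acceptors that differ by 36, 39 and 75 nt. Slc39a13 had a pair that differs by 39 nt, the bicarbonate cotransporter Slc4a7 a donor pair, by the strand of the catalogues, that differs by 39 nt, and the zinc transporter Slc39a11 a donor pair that differs by 21 nt. The catalogues place the Slc4a7 pair, like nearly all events of that gene, opposite to the gene's strand in GENCODE M21, on which it would be an acceptor pair. An intron of 285 nt in Slc2a6 and an intron of 199 nt in Slc7a6, an amino acid exchanger, were listed as retained in all 12 libraries. Slc9a5 had an intron of 297 nt retained in 11 libraries and the lysosomal arginine sensor Slc38a9 an intron of 1919 nt in 10. First exons recurred more often: 31 genes had at least 2 first exons in all 12 libraries, and 4 had at least 2 last exons in all 12. Of 2290 distinct solute carrier events, 13.2% were in all 12 libraries and 46.4% in 1 library, against 16.2% and 44.0% of 141591 events over all genes.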

How the data were processed

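RNA sequencing of 12 BV-2 libraries in 4 groups of 3 was used, with groups and replicate numbers from the titles. The deposited files are lists of transcript events and hold no other value than positions: per the file headers, the columns are an event, its type, gene and pattern, and its place. GRCm38 and the tools BWA 0.7.12, HOMER and MACS2 2.1.0 are named in the submitters' processing notes; the program behind the lists and their assembly are not given in the sources used here. Of 772924 lines, 128404 partner lines (types ending in _OFF) and 9998 repeats were dropped, leaving 634522 library events. First and last exons were keyed by their splice site and other events by start and end. Of the 2290 solute carrier events, 140 (6.11%) lay on the strand opposite to the annotated gene.

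Events per gene and library were tested with limma 3.58.1 in R 4.3.3 (trend and robust moderation, pseudocount 1, at least 1 event in 3 libraries, 8 residual degrees of freedom), and checked on simulated data. Named genes were, per comparison, up to 4 in each direction with the largest difference among those with an unadjusted p under 0.05 and groups that do not overlap, the 3 with the most events in each class, a list of known microglial transporters, and genes in all 3 libraries of a group and none of another; others were chosen after their values were seen. The members and lists were chosen with earlier results of these data known. Skipped exons were matched to GENCODE M21 by exon and flanking intron lengths, and 4 of the 188 matches kept the deposited position. Gene names matched GENCODE for 195 genes by symbol and 5 by an older symbol. Depth is unknown. Some items are not reported here. Python 3.11.15, pandas 2.3.3 and matplotlib 3.10.9 were used.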

Additional observations from a re-analysis of the deposited data

How the results depend on the processing

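The count of 0 solute carrier genes past the adjusted threshold was the same in 259 of 262 recalculations over 22 settings: another pseudocount (0.5), a stricter or no filter, no variance trend or robust moderation, only the groups compared, a covariate for how many genes a library lists, event classes taken alone, approximate forms merged, and each library left out. Without Control replicate 1, the serotonin transporter Slc6a4 was called with more events in each of the 3 treatments against Control, so leaving out 1 library gave 0 to 1 genes in those comparisons. Gene differences were recalculated for 26 results, and Slc6a4, which crossed the threshold without Control replicate 1, was not among them. Of these results' 550 recalculated values 548 kept their sign and side of the threshold, with a lowest adjusted limma p of 0.0618. The 2 exceptions are Slc15a4 with first and last exons alone, at 0.0196 for LPS+NMN against LPS and 0.1269 for LPS+NMN against Control. The cause was not tested. The counts of genes with a wider or narrower stretch, recalculated as settings chosen after seeing the data, were 0 to 5 at a 2-fold gap and 1 to 9 with each library of the compared groups left out; the 6 narrower in LPS than Control gave 5 at the 2-fold gap and 6 to 9 without a library.

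The replicate block gave 0 called genes in all comparisons. No pairing by number was seen: deviations of same-numbered libraries correlated at -0.027 to 0.0206 and of others at -0.0154 to 0.0242. These values rest on few events per gene and cannot show that the libraries are unpaired. Nothing in the labels says that a number marks a shared culture or day. Event numbers are small and discrete, and depth is unknown, so a gene missing from a catalogue is not shown to be absent from the cells.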
